A study of Rattus norvegicus with 6 samples.

Results

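Integrins are cell surface receptors made of an alpha and a beta chain, and laminins are the three-chain proteins of basement membranes to which some of them bind. The genes described here are the integrin alpha and beta chains and the laminin alpha, beta and gamma chains, chosen by symbol, 34 of 26981 features in the deposited table. They were 24 integrin chains and 10 laminin chains. Binding partners and relatives with a similar symbol (Itgb1bp1, Itgb1bp2, Itgb3bp and Itgbl1) were left out, and Itgad, Itgb5 and Lama3 were not analysed here.

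RNA was taken from right knee articular cartilage of wild-type male SD rats, aged 6 weeks when loading began. In the loaded group (3 libraries) anaesthetised rats had the right knee and ankle compressed along the leg's axis every 2 days for 4 weeks. A session had 40 cycles of 10 s, in which the load rested at 5 N (9 s) and peaked at 20 N (0.5 s). The control group (3 libraries) was unloaded. The loaded libraries carried a label of excessive mechanical load without its size, and the peak and the duration come from the series' design text, as does the unloaded group of 3 that the control titles were matched to. Nothing states that each library came from its own rat, so the p-values rest on variation among libraries that could be technical.

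Each integrin is known by its ligands. Collagen, laminin and fibronectin are bound through different alpha chains that mostly share beta 1, while beta 2 and beta 7 pair with the alpha chains of white blood cells and the pair of Itga2b and Itgb3 is the fibrinogen receptor of platelets. In cartilage, chondrocytes hold type II collagen and fibronectin through beta 1 integrins, and mature cartilage has few basement membranes, which surround muscle fibres, vessels, fat cells and nerves.

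Counts in the table were scaled to CPM, a library's counts relative to its scaled total,, and loaded was compared with control in 1 model over all features (edgeR's quasi-likelihood test, with p-values adjusted by Benjamini-Hochberg over 16447 features, called at an adjusted p under 0.05). Library totals were 28435307 to 33616096 counts in loaded and 34527264 to 40332904 counts in control libraries, and a count of 0 would still allow 0.0767 to 0.105 CPM depending on the library, from counting error alone. The tissue was mixed. All 10 chondrocyte markers were detected, at a summed 2426 to 2527 CPM in loaded and 1667 to 1758 CPM in control libraries, and 12 markers of neutrophils and marrow myeloid cells summed to 31626 to 38223 CPM in loaded and 45681 to 50253 CPM in control libraries.

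Of the 34 chains 32 passed the filter on low counts, and 14 of these changed (43.8%), against a background of 35.8% of all features tested. The direction was uneven: 10 chains fell (the background of falls is 18.0%) and 4 rose (the background of rises is 17.9%). The falls were Itga2b, Itgb3, Itga5, Itga6, Itgb1, Itgam, Itgal, Itgb2, Itgb7 and Lamb3, and the rises were Itga3, Itga7, Itga10 and Itgb6. The median log2 fold change was -0.05 over the 32 chains and 0.00 over all features. The loaded libraries all lay on one side of the control libraries for 16 of the 32 chains, against a background of 47.9%.

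The chains are given here by level, beside all features of the same level. Among the 14 chains with a mean of at least 10 CPM over the 6 libraries, a division made after the values were seen, 9 fell and 0 rose (0 rises also at an unadjusted p under 0.05), and at that level 48.6% of all features were called, 20.8% rising and 27.9% falling. By DESeq2 and by limma-voom too, no chain at this level rose. The absence of rises depends on where the division was set. Itga10, which rose, lay little under it, at a mean of 11.1 CPM in loaded and 8.36 CPM in control libraries. Among the 18 tested chains under 10 CPM, 4 rose and 1 fell, and at that level 21.8% of all features were called, 14.7% rising and 7.08% falling. Over all features too, falls outnumbered rises at the higher level and rises outnumbered falls at the lower, and the chains were not tested against them.

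**Figure D1:**
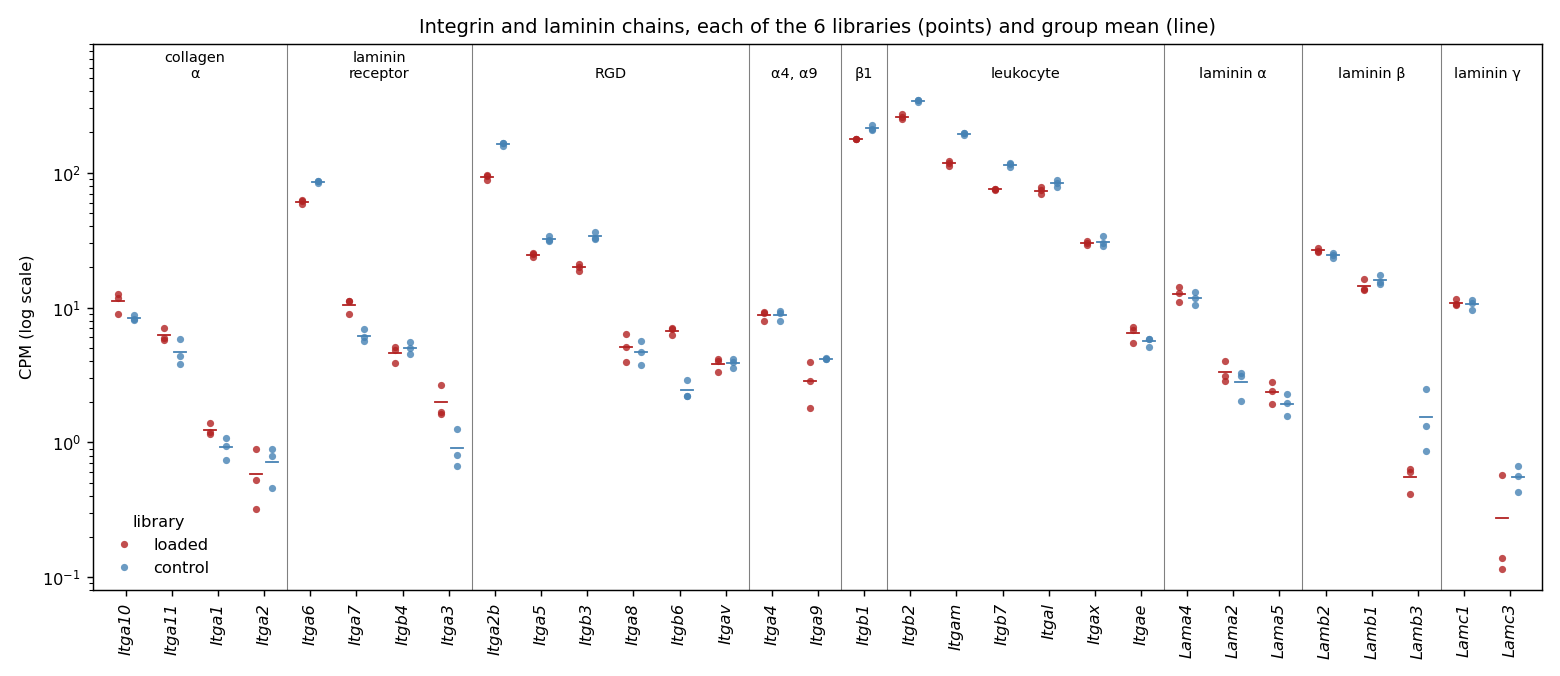
CPM (vertical, log scale) of the chains that passed the filter and are reported here, grouped by ligand class, with a point for each of the 3 loaded (red) and 3 control (blue) libraries and a line at the group mean. Itga2b, Itgb3, Itgam, Itgb2, Itgb7 and Itgb1 lie lower in loaded libraries, and Itgb6, Itga7 and Itga3 lie higher at low levels.

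Compared per transcript length (FPKM, the authors' deposited values), the beta 2 chain stood first in both groups, at 80.6 ± 5.54 FPKM in loaded and 99.4 ± 4.00 FPKM in control libraries (SD, n = 3 each). Itgb1 followed at 47.3 ± 1.38 FPKM in loaded and 53.3 ± 3.58 FPKM in control libraries. Next came Itgam at 32.8 ± 2.27 FPKM in loaded and 50.9 ± 1.88 FPKM in control libraries, and Itga2b at 29.3 ± 1.23 FPKM in loaded and 48.0 ± 1.96 FPKM in control libraries. In the controls Itgb1 and Itgam differed by less than the SD of Itgb1, whereas in the loaded libraries Itgb1 stood clear of Itgam by several SD. The 6 leukocyte chains together took 58.7% ± 0.624 of the summed integrin FPKM in loaded and 59.2% ± 0.539 in control libraries, groups that overlapped. All 10 laminin chains took 4.06% ± 0.0842 of the summed FPKM of the 34 chains in loaded and 2.98% ± 0.0385 in control libraries. Of the 9 laminin chains tested 0 rose (median log2 fold change 0.04), and the most abundant integrin chains of that sum fell. The most abundant laminin chain, Lamb2, ranked 11 of 34 in both groups.

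The platelet pair had the largest fitted falls among the chains at 10 CPM or more. Itgam was close (log2 fold change -0.73 ± 0.0464), and the order was not tested. Itga2b, the platelet alpha chain and a marker of megakaryocytes, had 95.1, 96.6 and 88.4 CPM in loaded libraries, against 158, 165 and 166 CPM in control libraries. Its change was -0.80 ± 0.0498 on the log2 scale (SE), a 1.75-fold lower level (adjusted p = 1.02e-08, edgeR). Itgb3, its partner, which also pairs with Itgav in osteoclasts, had 21.2, 20.2 and 18.6 CPM in loaded libraries, against 32.1, 36.4 and 33.0 CPM in control libraries (log2 fold change -0.76 ± 0.0816, adjusted p = 3.74e-06, edgeR). For both chains every loaded library was below every control library. The ratio of the 2 chains in FPKM overlapped between groups, at 3.10 ± 0.0796 in loaded and 3.17 ± 0.177 in control libraries.

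Markers of platelets and megakaryocytes moved with this pair. Of 10 such markers, which do not include the integrins, 8 fell and 0 rose, none was at 0 in any library, and their summed level was 440 to 464 CPM in loaded and 788 to 841 CPM in control libraries. Osteoclast markers moved the other way, 4 of 8 rising and 0 falling, with a summed 1677 to 1735 CPM in loaded and 923 to 957 CPM in control libraries. Over all features tested 18.0% fell and 17.9% rose. At an unadjusted p under 0.05, 0 platelet markers rose and 1 osteoclast marker fell. Itgav, the alpha chain of the vitronectin receptor, had 3.32, 4.03 and 4.17 CPM in loaded libraries, against 4.18, 3.56 and 3.96 CPM in control libraries, which overlapped (adjusted p = 0.945, edgeR). The part of these cells in the integrin values was not tested, and in whole tissue fewer cells of a type and less RNA per cell cannot be told apart.

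Of the 6 leukocyte chains 4 fell, 0 rose (also at an unadjusted p under 0.05) and 2 did not pass, against a background of falls of 18.0% over all features and 27.9% at 10 CPM or more, where 5 of the 6 lie. Itgam, the alpha chain of the complement receptor Mac-1 of neutrophils and macrophages, had 123, 113 and 118 CPM in loaded libraries, against 191, 198 and 197 CPM in control libraries. That is a log2 fold change of -0.73 ± 0.0464 (adjusted p = 1.49e-08, edgeR), with no overlap. Itgb2, the chain that all Mac-1 type receptors share and that is lost in leukocyte adhesion deficiency, had 273, 251 and 258 CPM in loaded libraries, against 347, 348 and 334 CPM in control libraries (log2 fold change -0.39 ± 0.0428, adjusted p = 4.24e-06, edgeR). Itgb7, which pairs with Itga4 for homing to mucosa and with Itgae, had 73.9, 76.1 and 76.3 CPM in loaded libraries, against 110, 118 and 116 CPM in control libraries (log2 fold change -0.60 ± 0.049, adjusted p = 1.98e-07, edgeR). In these 3 genes the loaded libraries formed a separate, lower group.

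The other leukocyte alpha chains moved less. Itgal, the alpha chain of LFA-1 on lymphocytes and myeloid cells, had 78.4, 73.9 and 69.0 CPM in loaded libraries, against 83.6, 88.5 and 78.0 CPM in control libraries. These groups overlapped, and the fall of 0.18 on the log2 scale passed narrowly (adjusted p = 0.0352, edgeR). It was lost with library totals (log2 fold change -0.10, adjusted p = 0.278), with upper-quartile scaling (adjusted p = 0.0514), with limma-voom (adjusted p = 0.0576) and without loaded 2, loaded 3, control 1 or control 2 (adjusted p = 0.0708 to 0.149). Itgax, of dendritic cells and macrophages, had 29.1, 30.1 and 31.0 CPM in loaded libraries, against 29.9, 34.0 and 28.4 CPM in control libraries (adjusted p = 0.786, edgeR). Itgae, the E-cadherin receptor of T cells and dendritic cells, had 5.43, 7.15 and 6.87 CPM in loaded libraries, against 5.84, 5.90 and 5.14 CPM in control libraries (adjusted p = 0.341, edgeR). Both overlapped between groups.

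The shares of the alpha partners of beta 2 are given next. Itgam took 59.6% ± 0.978 of the summed FPKM of Itgal, Itgam and Itgax in loaded and 69.0% ± 1.51 in control libraries (SD, n = 3 each), whereas Itgal took 29.0% ± 1.22 in loaded and 22.9% ± 1.01 in control libraries. Itgax took 11.4% ± 0.727 in loaded and 8.14% ± 0.559 in control libraries. For all 3 shares the groups did not overlap, and each gave p = 0.1 in a two-sided exact permutation test, the smallest that 3 libraries against 3 allow. Such shares do not depend on the scaling between libraries.

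Several markers of cells that carry these chains fell as well, beside backgrounds of 18.0% falling and 17.9% rising over all features. In the neutrophil and marrow myeloid list 8 of 11 tested markers fell and 1 rose, and among monocyte and macrophage markers 4 of 8 fell and 1 rose (summed 268 to 273 CPM in loaded and 306 to 331 CPM in control libraries). Marco, on the second list, was at 0 in all libraries, and Ltf, on the first, in 4 of the 6. Of 10 T and NK cell markers 3 fell and 1 rose (40% called, against 35.8% of all features). Their sum was mostly Nkg7, at 204 to 228 CPM in loaded and 369 to 388 CPM in control libraries, and the other 9 markers summed to 46.6 to 52.2 CPM in loaded and 50.1 to 54.1 CPM in control libraries, which overlapped. Of 7 erythroid markers 3 fell and 0 rose (42.9% called, and 1 rise at an unadjusted p under 0.05). B lineage markers stood higher, at 248 to 250 CPM in loaded and 209 to 212 CPM in control libraries, with 2 of 8 rising and 1 falling (37.5% called). For the T and NK cell, erythroid and B lineage lists the share called lay near that of all features. The part of these cells in the integrin falls was not tested.

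**Figure D2:**
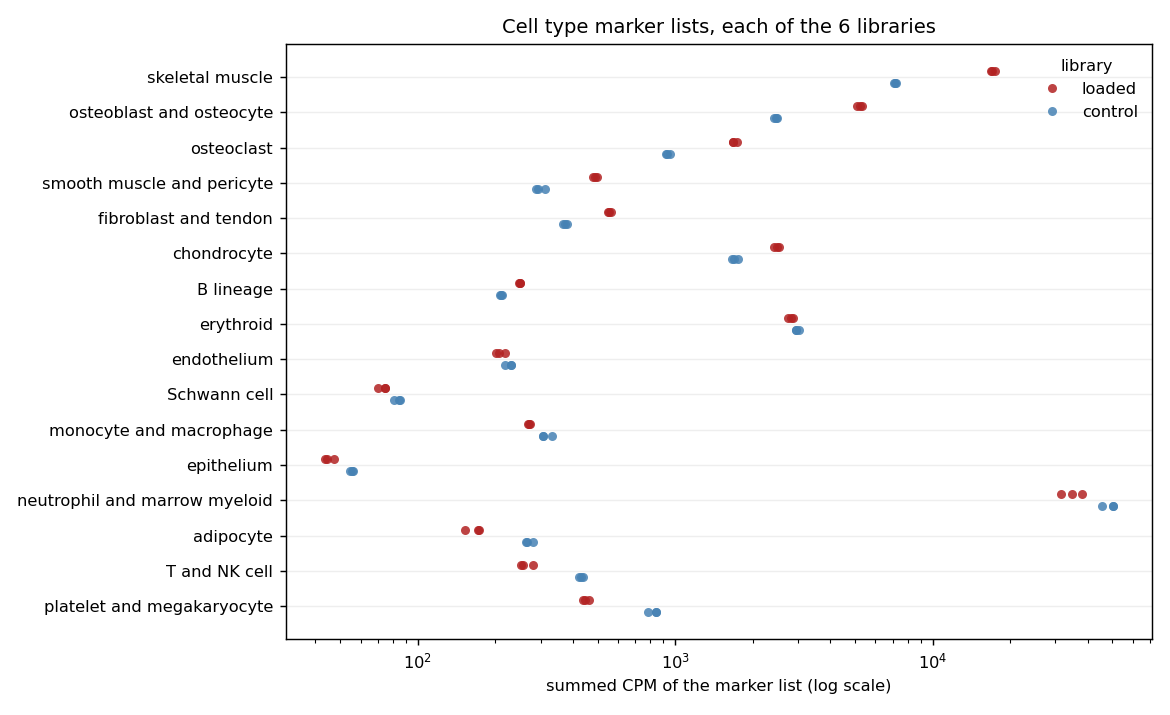
Summed CPM (horizontal, log scale) of each cell type marker list in the 3 loaded (red) and 3 control (blue) libraries, ordered from the highest to the lowest ratio of loaded to control. Skeletal muscle markers stand highest by that ratio, at 16851 to 17542 CPM in loaded and 7086 to 7211 CPM in control libraries, and platelet and megakaryocyte markers lowest.

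Promoter sequences are shown for 3 of the blood cell chains that fell together and for Itgb6, which rose, because factors of blood cell lineages are known to bind short motifs in promoters of this kind. They are RefSeq promoters of the rat build GRCr8, matched by symbol, which was possible for 26 of the 34 chains. Each runs 5′ to 3′ on the gene's strand from upstream of the annotated start to just past it. Capitals mark matches, on either strand, to the GATA motif (the word AGATAA, the word TGATAA, the word AGATAG or the word TGATAG), to GAGGAA, the core bound by PU.1 of myeloid cells, and to TGTGGT, the core bound by RUNX factors; no matches overlapped in these windows.
Itga2b (chr10:87925784-87926083, minus strand): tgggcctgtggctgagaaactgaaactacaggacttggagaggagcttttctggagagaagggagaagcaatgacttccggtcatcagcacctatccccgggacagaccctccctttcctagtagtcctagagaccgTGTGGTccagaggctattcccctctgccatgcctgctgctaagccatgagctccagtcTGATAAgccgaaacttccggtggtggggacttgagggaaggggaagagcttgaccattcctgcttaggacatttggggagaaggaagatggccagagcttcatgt
Itgam (chr1:192089342-192089641, plus strand): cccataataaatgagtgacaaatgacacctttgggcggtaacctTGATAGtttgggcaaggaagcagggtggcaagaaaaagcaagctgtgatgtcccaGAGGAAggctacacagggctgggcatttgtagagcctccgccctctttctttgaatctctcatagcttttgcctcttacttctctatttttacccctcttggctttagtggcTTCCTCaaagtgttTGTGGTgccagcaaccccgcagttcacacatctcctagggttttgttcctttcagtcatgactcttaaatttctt
Itgb7 (chr7:135239022-135239321, minus strand): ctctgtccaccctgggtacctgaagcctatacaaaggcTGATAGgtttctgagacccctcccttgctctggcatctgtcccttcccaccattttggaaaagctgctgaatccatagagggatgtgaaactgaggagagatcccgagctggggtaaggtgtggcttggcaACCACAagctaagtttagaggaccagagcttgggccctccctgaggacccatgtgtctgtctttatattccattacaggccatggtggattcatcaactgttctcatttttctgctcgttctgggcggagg
Itgb6 (chr3:65530284-65530583, minus strand): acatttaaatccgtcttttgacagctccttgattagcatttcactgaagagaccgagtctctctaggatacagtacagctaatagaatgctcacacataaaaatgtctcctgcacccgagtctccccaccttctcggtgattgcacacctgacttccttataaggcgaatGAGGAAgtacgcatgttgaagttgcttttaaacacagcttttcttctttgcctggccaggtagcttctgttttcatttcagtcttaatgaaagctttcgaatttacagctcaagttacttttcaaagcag
Itga2b held a GATA match at position -55 from the start and a RUNX match at -113. Itgam held PU.1 matches at -151 and -39, a RUNX match at -25 and a GATA match at -206. Itgb7 held a GATA match at -212 and a RUNX match at -81, and Itgb6 a PU.1 match at -80. The GATA motif is in 30.3% of the 33469 RefSeq promoters of this length, the PU.1 core in 27.6% and the RUNX core in 17.3%. Of the 26 chains with a promoter 7 held the GATA motif, 11 the PU.1 core and 6 the RUNX core. A match describes the letters only.

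Of the 4 collagen-binding alpha chains 1 rose and 3 did not pass, a share near the background of 17.9% rising. Itga10, which with beta 1 forms the type II collagen receptor of chondrocytes, had 11.8, 12.6 and 8.93 CPM in loaded libraries, against 8.15, 8.76 and 8.18 CPM in control libraries. All loaded values lay above all control values, loaded 3 by a small margin, and the log2 fold change was 0.41 ± 0.138 (adjusted p = 0.0311, edgeR). The call was lost with limma-voom (adjusted p = 0.0619) and without any single library except loaded 3 (adjusted p = 0.0564 to 0.127), and held without loaded 3. Chondrocyte markers moved with it, 6 of 10 rising and 0 falling, as did 7 of 10 osteoblast and osteocyte markers (1 fell) and 3 of 7 tested fibroblast and tendon markers (2 fell), and their part in its level was not tested. The backgrounds over all features were 17.9% rising and 18.0% falling. Itga11, the collagen receptor chain of fibroblasts, had 5.97, 5.71 and 7.04 CPM in loaded libraries, against 4.35, 5.81 and 3.83 CPM in control libraries, which overlapped (log2 fold change 0.42 ± 0.18, adjusted p = 0.0826, edgeR). It passed with library totals (adjusted p = 0.0487) and without control 2 (adjusted p = 0.0296).

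Itga1 and Itga2, the collagen receptor chains with the lowest levels, had 1.15 to 1.39 and 0.319 to 0.894 CPM in loaded libraries, against 0.744 to 1.08 and 0.46 to 0.887 CPM in control libraries (adjusted p = 0.375 for Itga1 and 0.701 for Itga2, edgeR). Within this class Itga10 took 54.9% ± 6.43 of the summed FPKM in loaded and 54.4% ± 3.89 in control libraries, which overlapped. Itgb1, the beta chain of all 4, had 178, 177 and 178 CPM in loaded libraries, against 206, 224 and 209 CPM in control libraries, a fall without overlap (log2 fold change -0.26 ± 0.0442, adjusted p = 0.000284, edgeR). Since Itga10 and Itgb1 moved in opposite directions, the ratio of Itga10 to Itgb1 in FPKM was 0.0453 ± 0.00802 in loaded and 0.0284 ± 0.000171 in control libraries, with no overlap.

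The laminin receptor chains split. Itga6, the laminin receptor chain of platelets, blood progenitors and epithelia, had 63.3, 61.5 and 58.3 CPM in loaded libraries, against 86.3, 83.4 and 87.4 CPM in control libraries (log2 fold change -0.49 ± 0.0518, adjusted p = 3.26e-06, edgeR). Itga7, the laminin receptor chain of muscle fibres, had 11.1, 8.94 and 11.3 CPM in loaded libraries, against 6.07, 5.60 and 6.93 CPM in control libraries, a 1.69-fold rise (log2 fold change 0.75 ± 0.142, adjusted p = 0.00071, edgeR). Both chains separated the groups fully, in opposite directions. Skeletal muscle markers rose in 9 of 9 cases, and smooth muscle and pericyte markers in 6 of 8 with 0 falls (summed 481 to 498 CPM in loaded and 288 to 312 CPM in control libraries). The background of rises over all features was 17.9%. The part of muscle in the level of Itga7 was not tested.

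Itga3, a receptor chain for laminins of epithelial and other basement membranes, had 53, 76 and 56 counts in loaded libraries, against 28, 43 and 26 counts in control libraries. In CPM these were 1.69, 2.66 and 1.62 in loaded libraries, against 0.801, 1.26 and 0.664 in control libraries, a 2.19-fold rise with no overlap (adjusted p = 0.0192, edgeR). Without loaded 2, control 1 or control 3 it missed the threshold (log2 fold change 0.87 to 1.05, adjusted p = 0.0748 to 0.0893). Itgb4, which joins Itga6 in hemidesmosomes, had 5.08, 4.84 and 3.88 CPM in loaded libraries, against 4.49, 5.58 and 4.98 CPM in control libraries, which overlapped (adjusted p = 0.618, edgeR). Among Itga3, Itga6 and Itga7, Itga6 took 79.0% ± 1.48 of the summed FPKM in loaded and 90.0% ± 1.24 in control libraries, and Itga7 took 17.9% ± 2.36 in loaded and 8.86% ± 1.23 in control libraries. Neither share overlapped between groups.

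**Figure D3:**
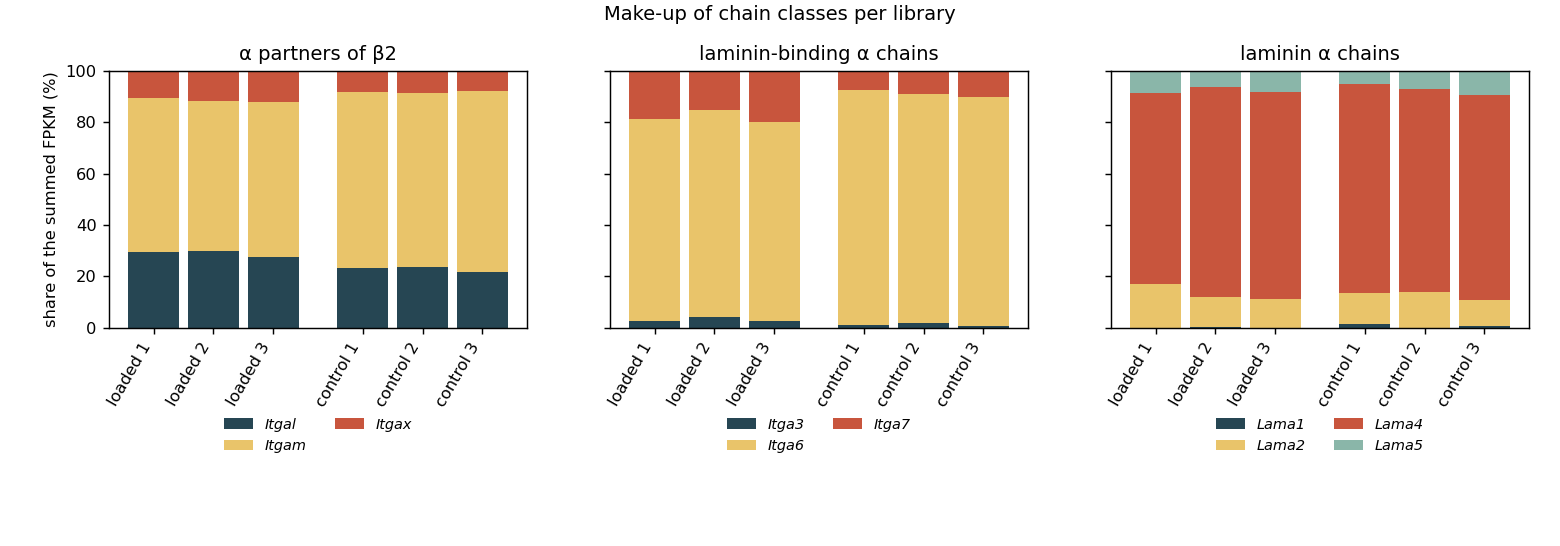
Share of the summed FPKM (vertical, in %) taken by each chain within the alpha partners of beta 2, the laminin-binding integrin alpha chains and the laminin alpha chains, as stacked bars for the 3 loaded and then the 3 control libraries. Itgam and Itga6 take smaller shares in the loaded libraries, and the laminin alpha chains are divided alike in both groups, with Lama4 at 78.9% in loaded and 80.2% in control libraries.

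Of the 6 tested chains that bind the RGD sequence of fibronectin and other ligands, 1 rose and 3 fell, the platelet pair among the falls. Over all features tested 17.9% rose and 18.0% fell. Itgb6, which with Itgav forms an epithelial receptor that activates latent TGF-beta, had 6.93, 7.08 and 6.23 CPM in loaded libraries, against 2.89, 2.22 and 2.22 CPM in control libraries. At 2.76-fold this was the largest rise among the 32 chains (log2 fold change 1.46 ± 0.178, adjusted p = 1.35e-05, edgeR), with no overlap. It kept its call in all 14 alternatives. Of 3 tested epithelial markers 0 rose and 1, Cdh1, fell. Epcam and Krt8 did not pass, with imprecise log2 fold changes of 0.25 ± 0.697 and 0.23 ± 0.366. Krt15 was at 0 in all libraries, and Krt5, Krt14 and Krt18 were at 0 to 4 counts in each. The part of epithelial cells in the level of Itgb6 was not tested. The authors' deposited table gave Itgb6 a log2 fold change of 1.47.

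Itga5, the fibronectin receptor chain, had 24.8, 23.8 and 25.6 CPM in loaded libraries, against 31.6, 33.7 and 31.4 CPM in control libraries, a fall without overlap (log2 fold change -0.38 ± 0.0715, adjusted p = 0.000693, edgeR). Itga8, a nephronectin receptor chain of smooth muscle and kidney, had 3.93, 6.41 and 5.07 CPM in loaded libraries, against 3.75, 5.69 and 4.70 CPM in control libraries (adjusted p = 0.695, edgeR). Itgb8, another partner of Itgav, was below the filter with 2, 0 and 0 counts in loaded and 0, 2 and 1 counts in control libraries.

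Neither Itga4 nor Itga9 passed. Itga4, the VCAM-1 receptor chain of lymphocytes and monocytes, had 9.16, 7.89 and 9.28 CPM in loaded libraries, against 8.01, 9.08 and 9.46 CPM in control libraries (adjusted p = 0.96, edgeR). Itga9, a receptor chain for tenascin and osteopontin, had 3.96, 1.79 and 2.84 CPM in loaded libraries, against 4.26, 4.15 and 4.14 CPM in control libraries. Every loaded value of Itga9 was lower, but the loaded libraries spread widely (log2 fold change -0.54 ± 0.246, adjusted p = 0.104, edgeR). Without loaded 1 it passed (log2 fold change -0.84, adjusted p = 0.0153).

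**Figure D4:**
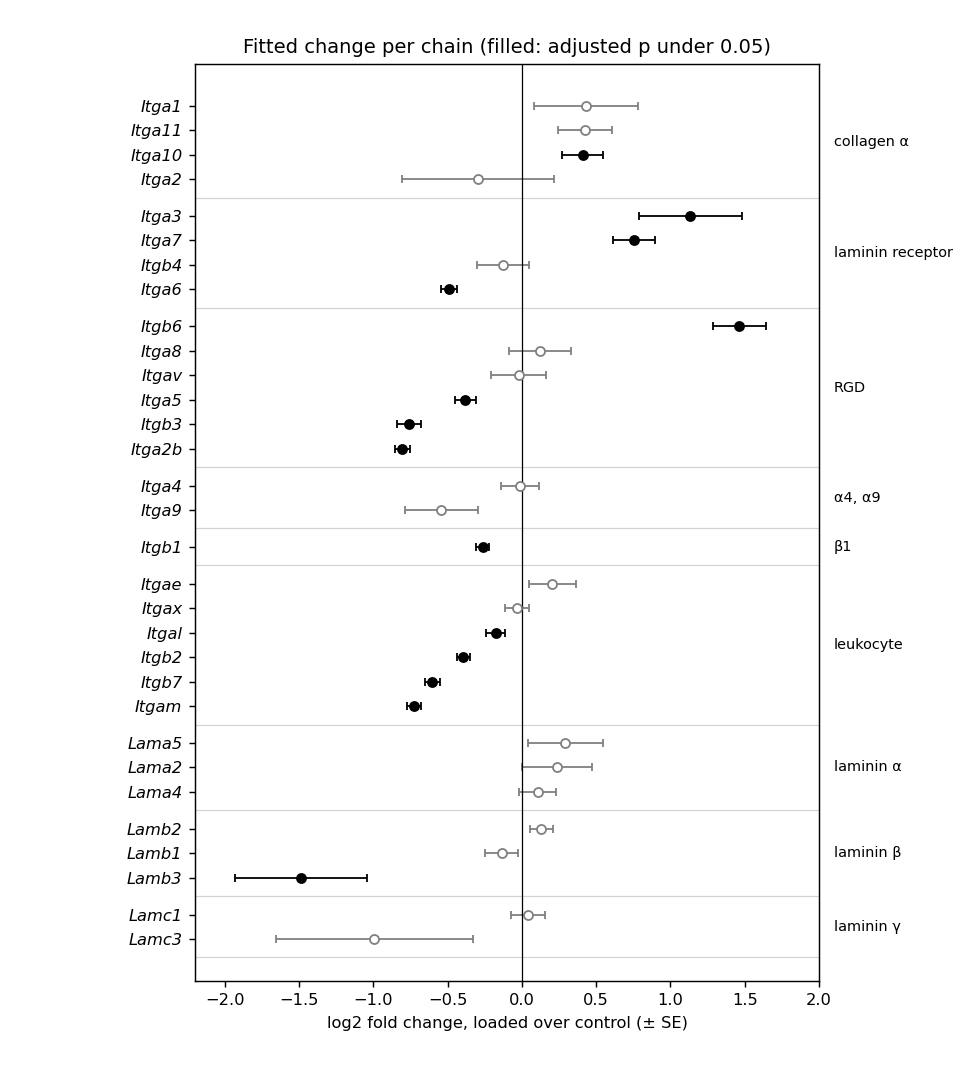
Fitted log2 fold change of loaded over control (horizontal, bars ± SE) for the tested chains reported here, grouped by class from top to bottom; filled points passed an adjusted p under 0.05. The filled leukocyte and platelet chains lie left of 0 down to -0.80, Itgae lies at 0.21 unfilled, Itgb6 lies at 1.46, and Lamb3 is the 1 filled laminin chain.

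Few laminin chains passed the test. Of 9 tested 1 fell and 0 rose (11.1%, background 35.8%; 1 fall and 0 rises at an unadjusted p under 0.05), by limma-voom 0 were called and by DESeq2 1. The 3 tested alpha chains overlapped between groups. Lama4, of vessels, fat and muscle, had 10.9, 12.8 and 14.2 CPM in loaded libraries, against 13.0, 11.8 and 10.4 CPM in control libraries (adjusted p = 0.552, edgeR). Lama2, the alpha chain of muscle and nerve whose loss causes a congenital muscular dystrophy, had 3.99, 2.84 and 3.10 CPM in loaded libraries, against 3.09, 3.30 and 2.04 CPM in control libraries (log2 fold change 0.24 ± 0.235, adjusted p = 0.473, edgeR). Lama5, the widespread adult alpha chain, had 2.43, 1.93 and 2.78 CPM in loaded libraries, against 1.57, 1.96 and 2.30 CPM in control libraries (adjusted p = 0.411, edgeR). Lama1, an alpha chain of early development, was below the filter with 0, 2 and 0 counts in loaded and 13, 0 and 7 counts in control libraries.

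Markers of tissues with basement membranes did not move together (backgrounds over all features of 17.9% rising and 18.0% falling). Endothelial markers summed to 201 to 219 CPM in loaded and 218 to 230 CPM in control libraries, which overlapped (2 of 9 rose and 4 fell). Schwann cell markers summed to 70.3 to 74.9 CPM in loaded and 80.5 to 85.5 CPM in control libraries (1 of 7 tested rose and 3 fell), and adipocyte markers to 153 to 173 CPM in loaded and 263 to 280 CPM in control libraries (0 of 7 rose and 6 fell, as also at an unadjusted p under 0.05). Their part in the laminin values was not tested.

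The beta and gamma chains that pair with these in most basement membranes did not pass. Lamb1 had 16.3, 13.8 and 13.5 CPM in loaded libraries, against 15.0, 15.5 and 17.5 CPM in control libraries (adjusted p = 0.367, edgeR). Lamb2, of muscle, nerve and vessel basement membranes, had 26.0, 27.9 and 26.4 CPM in loaded libraries, against 24.7, 25.5 and 23.2 CPM in control libraries. Its groups did not overlap, but the log2 fold change of 0.13 ± 0.0763 missed the threshold (adjusted p = 0.208, edgeR). Lamc1, the gamma chain of most laminins, had 10.5, 10.6 and 11.5 CPM in loaded libraries, against 9.53, 10.8 and 11.4 CPM in control libraries (adjusted p = 0.833, edgeR).

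Lamb3, a beta chain of epithelial anchoring, and Lamc3, a gamma chain, had low levels. Lamb3 had 13, 18 and 21 counts in loaded libraries, against 46, 85 and 34 counts in control libraries, which is 0.415, 0.631 and 0.609 CPM in loaded and 1.32, 2.48 and 0.869 CPM in control libraries. The groups did not overlap, with control 2 far above the other controls, and the log2 fold change was -1.49 ± 0.443 (adjusted p = 0.0167, edgeR). Without control 2 it was -0.98 (adjusted p = 0.176), without loaded 1 -1.32 (adjusted p = 0.0522), and limma-voom gave -1.33 (adjusted p = 0.0646). Lamc3 had 0.575, 0.14 and 0.116 CPM in loaded libraries, against 0.429, 0.671 and 0.562 CPM in control libraries (adjusted p = 0.272, edgeR), and passed without loaded 1 (log2 fold change -2.09, adjusted p = 0.0437).

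Proteins that link integrins to actin fell more often than they rose. Of 28 adaptors, activators and kinases 13 fell and 3 rose, with a median log2 fold change of -0.20. Over all features 35.8% were called, 18.0% falling and 17.9% rising. At 10 CPM or more, where most of the 28 lie, 27.9% fell and 20.8% rose. The actin crosslinker filamin A (Flna) had 398, 397 and 407 CPM in loaded libraries, against 616, 618 and 627 CPM in control libraries (log2 fold change -0.63 ± 0.0346, adjusted p = 2.67e-09, edgeR). The focal adhesion proteins zyxin (Zyx) and vinculin (Vcl) fell by 0.68 ± 0.0406 and 0.66 ± 0.0547 on the log2 scale, and gamma parvin (Parvg), the parvin of blood cells, fell by 0.68 ± 0.0506.

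Of the kindlins of this list Fermt3 fell and Fermt2 rose, an example chosen after the values were seen. Fermt3, the kindlin of blood cells that activates beta integrins, had 227, 212 and 207 CPM in loaded libraries, against 309, 324 and 306 CPM in control libraries (adjusted p = 2.72e-07, edgeR). Fermt2, the kindlin of most other cells, had 46.5, 46.5 and 44.2 CPM in loaded libraries, against 28.9, 34.4 and 33.4 CPM in control libraries (adjusted p = 5.47e-05, edgeR). Another kindlin, Fermt1, had low levels and did not pass (log2 fold change 1.22 ± 0.639, adjusted p = 0.159, edgeR). Alpha parvin (Parva), of adherent cells, rose by 0.40 ± 0.103 on the log2 scale, and so did focal adhesion kinase (Ptk2), by 0.35 ± 0.105, a call lost without control 1 (adjusted p = 0.088, edgeR). Its relative Ptk2b and the talin Tln2 did not pass (adjusted p = 0.187 and 0.159, edgeR). The more abundant talin Tln1 fell by 0.44 ± 0.0386 on the log2 scale, and beta parvin (Parvb) fell by 0.36 ± 0.0476. The adaptors Tns2 and Tgfb1i1 fell by 0.44 and 0.45 on the log2 scale. Fermt2, Parva and Ptk2 were the rises of the list, and for each of them all loaded libraries lay above all control libraries.

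Of 17 tested partners of laminin in the basement membrane 3 rose and 2 fell (29.4%), with a median log2 fold change of 0.02. Over all features 35.8% were called, 48.6% at 10 CPM or more and 21.8% under it, where most of these partners lie. Agrin (Agrn), which links laminin to dystroglycan, had 13.9, 10.5 and 8.99 CPM in loaded libraries, against 8.35, 6.92 and 7.26 CPM in control libraries (log2 fold change 0.57 ± 0.158, adjusted p = 0.0113, edgeR). The call was lost without loaded 1, control 2 or control 3 (adjusted p = 0.0509 to 0.066, edgeR). The laminin alpha 5 receptor Bcam rose by 0.38 ± 0.107 on the log2 scale, a call lost without control 2 (adjusted p = 0.0636, edgeR). The type IV collagen chain Col4a4 fell by 1.06 ± 0.224 and peroxidasin (Pxdn), which crosslinks type IV collagen, fell by 0.68 ± 0.169.

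Ligands of the integrins showed changes in both directions. Of 15 matrix ligands of RGD and alpha 9 receptors 8 rose and 3 fell, against backgrounds of 17.9% and 18.0% (median 0.37). At 10 CPM or more, where most of the 15 lie, 20.8% of features rose and 27.9% fell. Bone sialoprotein (Ibsp) had 516, 504 and 478 CPM in loaded libraries, against 168, 179 and 172 CPM in control libraries, and periostin (Postn) rose by 1.14 ± 0.0692 on the log2 scale. Fibronectin (Fn1), the ligand of Itga5, had 409, 392 and 395 CPM in loaded libraries, against 744, 759 and 763 CPM in control libraries, and thrombospondin 1 (Thbs1) fell by 1.30 ± 0.0932. Of 9 tested ligands of leukocyte integrins 2 rose and 2 fell (44.4%, against 35.8% of all features and 48.6% at 10 CPM or more). Vcam1, the ligand of Itga4, had 110, 106 and 108 CPM in loaded libraries, against 141, 137 and 135 CPM in control libraries, and Cdh1, the E-cadherin ligand of Itgae, fell by 0.32 ± 0.0567. Thy1 rose by 0.89 ± 0.0586 on the log2 scale. Icam2 passed narrowly, at 0.18 ± 0.0633 (adjusted p = 0.0428, edgeR), and missed the threshold in 7 of 14 alternatives, among them DESeq2, limma-voom and the replicate block (adjusted p = 0.0533 to 0.19).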

How the data were processed

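TRIzol-extracted total RNA was made into mRNA libraries (Hieff NGS Ultima kit), per the labels' protocols. The deposited table held raw counts per gene that the authors left unnormalised and FPKM values that the authors computed per library, per the file headers, beside the authors' DESeq2 comparison. The submitters' processing notes name HISAT2, DESeq2 and the mouse build mm10, although the identifiers are rat Ensembl genes. How reads were counted, and on which strand, is not given in the sources used here; reads of overlapping antisense genes cannot be told apart.

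Of 26991 lines 10 spilled annotation pieces were dropped. The test was that of edgeR 4.0.16, run in R 4.3.3 (filterByExpr, 16447 features kept; TMM factors 0.961 to 1.05; robust quasi-likelihood F test, no replicate block). An SE was obtained as |log2 fold change| / √F, and CPM uses TMM-scaled totals. FPKM entered no test except the exact permutation test of the chain shares. Alternatives were DESeq2 1.42.0, limma-voom 3.58.1, other scalings, filters and thresholds, a replicate block and each library left out. On counts simulated for this comparison over 16447 features, the test called 17 of 16247 unchanged genes. It recovered 18% of 50 genes changed 1.25-fold, 70% of 50 changed 1.5-fold and 90% of 50 changed 2-fold. The changed genes were drawn from those averaging at least 50 counts, so the recovery does not cover chains with fewer counts. Far fewer genes were changed in the simulation than were called in the data.

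The members, classes, pathway lists and marker lists were chosen with earlier results of these data known. Of 220 symbols in the pathway and marker lists 213 were matched, 2 through an older RefSeq symbol. Of the members 1, included in the counts, is not reported here. Every other member is named, with its value in every library where it was called, and raw counts where a called or filtered member averaged under 1 CPM in a group. Of each pathway list the 4 called genes with the smallest adjusted p are named. Fermt3, Fermt2, Fermt1, Parva, Parvb, Ptk2, Ptk2b, Tln1, Tln2, Tns2, Tgfb1i1 and the markers Nkg7, Epcam and Krt8 were added after their values were seen.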

Additional observations from a re-analysis of the deposited data

How the results depend on the processing

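Of the 14 called chains 10 kept their call and direction in every alternative that tested them, namely Itga2b, Itgb3, Itga5, Itga6, Itga7, Itgb1, Itgb2, Itgam, Itgb7 and Itgb6. Itga3, Itga10, Itgal and Lamb3 each lost it in some, and no called chain changed sign. The count of chains called was 11 to 14 with 1 library left out and 11 with limma-voom, and that of all features was 4645 to 5614 with 1 library left out. With library totals in place of TMM the median of all features moved by 0.0747, 63.3% of all calls were rises against 49.9% with TMM, and the chains gave 5 rises and 9 falls.

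By class, the count of collagen-binding chains called was 2 with library totals and at an adjusted p under 0.1, 0 with limma-voom and at an adjusted p under 0.01, and 0 to 1 with 1 library left out. That of laminin beta chains was 0 with the stricter filter (at least 1 CPM in 3 libraries), with limma-voom and at an adjusted p under 0.01, and 0 to 1 with 1 library left out. The count for Itga4 and Itga9 and that for laminin gamma chains were 0 to 1 with 1 library left out. Of the called pathway genes Ptk2, Nid1, Agrn, Bcam, Icam2 and Fbn1 lost their call in some alternative. Basement membrane partners gave 2 calls at an adjusted p under 0.01 and 3 to 6 with 1 library left out.

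Changes of sign among the chains reported here fell on 6, none of them called. With library totals the log2 fold change was 0.064 for Itga4, 0.053 for Itgav and 0.040 for Itgax, and upper-quartile scaling gave 0.00050 for Itga4. With 1 library left out the range was -0.76 to 0.0031 for Itga2, -0.080 to 0.058 for Itga4, -0.065 to 0.28 for Itga8, -0.091 to 0.073 for Itgav, -0.091 to 0.041 for Itgax and -0.033 to 0.092 for Lamc1. The cause was not tested.

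Same-numbered loaded and control libraries did not deviate together (correlations -0.0139, 0.0462 and 0.0207), so the numbers were not taken as pairs. With the replicate number as a block 14 chains were called, the same 14, and 5349 of all features. Depth limits the chains under 1 CPM, where a few counts set the fold change.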

Other observations

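The genes with integrin-like names that the choice of members left out all averaged higher in the loaded libraries, and Itgb1bp2 and Itgbl1 were called. Itgb1bp2 (melusin), which binds the beta 1 tail in striated muscle, averaged 14.0 ± 0.968 CPM in loaded and 8.17 ± 0.327 CPM in control libraries (SD, n = 3 each; log2 fold change 0.77 ± 0.11, adjusted p = 6.38e-05, edgeR), and its groups did not overlap. Itgbl1, a secreted protein with integrin-like repeats, averaged 8.45 ± 1.08 CPM in loaded and 4.89 ± 0.584 CPM in control libraries (log2 fold change 0.79 ± 0.155, adjusted p = 0.000989, edgeR). Itgb3bp averaged 16.3 ± 1.97 CPM in loaded and 13.7 ± 0.616 CPM in control libraries. Its groups did not overlap, but it did not pass (adjusted p = 0.0928, edgeR). Itgb1bp1 averaged 27.4 ± 1.84 CPM in loaded and 25.2 ± 3.01 CPM in control libraries, which overlapped (adjusted p = 0.336, edgeR).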
